A study of Mus musculus with 12 samples.

Results

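The prostanoid genes of the mouse aorta were examined at the RNA level in 4 treatment groups. The 10 genes encode both cyclooxygenases (Ptgs1 and Ptgs2), 3 terminal synthases (Ptges, Ptgis and Tbxas1), the 4 receptors of prostaglandin E2 (Ptger1, Ptger2, Ptger3 and Ptger4) and the prostacyclin receptor (Ptgir). They were chosen by name, as every probe that the array files assign to one of these symbols, which gave 14 of the 55675 probes with a value on every array. Of these, 11 probes for 9 of the 10 genes were bright enough to be tested, among 27801 tested probes with 20026 gene names.

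All mice were males of the strain C57BL/6J, aged 11 to 14 weeks per the study's methods, and 1 array was made from the total RNA of each of 12 aortas on day 3. The sampled segment was the 10 mm of aorta above the right renal artery. The challenge (BA) was beta-aminopropionitrile (BAPN), an inhibitor of collagen and elastin crosslinking, at 150 mg/kg/day together with angiotensin II (AngII) at 1 µg/kg/min, a combination used to bring about aortic dissection in mice. The daily dose of rapamycin, which inhibits the growth kinase mTOR, was 2 mg/kg with dimethylsulfoxide (DMSO) as the vehicle. The groups were DMSO (vehicle alone), rapamycin (rapamycin alone), BA+DMSO (challenge with vehicle) and BA+rapamycin (challenge with rapamycin), with 3 mice each, so every group had DMSO. The DMSO group has titles that start with Pre, whereas the treatment label reads DMSO. Levels are log2 signals relative to the 75th percentile of the same array, and n = 3 per group throughout. The 8 smooth muscle, 8 endothelial and 8 fibroblast markers that were looked up, among them Myh11, Pecam1 and Pdgfra, were well above background on all 12 arrays. A level of one gene is not comparable with that of another, since each probe has its own response.

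Prostanoids are lipid mediators made from arachidonic acid. Cyclooxygenases turn it into prostaglandin H2, and terminal synthases turn that into prostaglandin E2, prostacyclin or thromboxane A2, which then act on G protein-coupled receptors close to where they were made. In arteries, prostacyclin from the vessel wall relaxes smooth muscle and restrains platelets, thromboxane A2 has the opposite effects, and prostaglandin E2 can act either way, depending on which of its receptors is present.

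Promoters of Tbxas1 and Ptgir are shown as the sequence context of genes that rose with the challenge. RefSeq windows on build GRCm38.p6 were available for 8 of the 10 genes, Ptger1 and Ptgis not among them. Each line gives the 250 bases upstream of the start site, 5′ to 3′ on the strand of the gene, with capitals at matches on either strand to the motifs named next. The motifs were the TATA box, spelled TATAAA, the GC box, spelled GGGCGG, the core bound by PU.1, a factor of myeloid cells, spelled GAGGAA, the AP-1 site, spelled TGANTCA, the cyclic AMP response element, spelled TGACGT, the E-box, spelled CACGTG, and the NF-kB and CArG box motifs by name.
Tbxas1, chr6:38918736-38918985, + strand: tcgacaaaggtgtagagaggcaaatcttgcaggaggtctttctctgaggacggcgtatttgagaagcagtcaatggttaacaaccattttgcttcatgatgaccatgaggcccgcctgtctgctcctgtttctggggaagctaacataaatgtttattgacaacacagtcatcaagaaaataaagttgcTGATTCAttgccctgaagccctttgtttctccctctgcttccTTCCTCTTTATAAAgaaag
Ptgir, chr7:16906240-16906489, + strand: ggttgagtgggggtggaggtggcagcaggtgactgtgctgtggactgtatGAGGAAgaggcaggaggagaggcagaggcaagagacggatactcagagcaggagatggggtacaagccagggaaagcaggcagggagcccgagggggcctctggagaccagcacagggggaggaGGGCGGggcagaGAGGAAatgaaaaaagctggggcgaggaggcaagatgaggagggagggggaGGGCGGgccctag
The Tbxas1 window held the AP-1 letters, the PU.1 core and, on both strands, the TATA box, whose 2 matches overlap each other and adjoin the PU.1 core. The Ptgir window held 2 GC boxes and 2 PU.1 cores. Over all 32851 windows of this length, 23.3% held the PU.1 core, 6.75% the AP-1 letters, 12.4% the TATA box and 32.7% the GC box. A match is a run of letters and does not show that a factor binds there.

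The challenge raised 3 of the 9 tested genes in the vehicle background and lowered none (BA+DMSO minus DMSO, limma adjusted p under 0.05). These were Ptger1, the EP1 receptor, which signals through calcium, Tbxas1, the thromboxane A2 synthase, and Ptgir, the prostacyclin receptor. Of all tested probes, 20.5% were called in this comparison, 9.65% higher and 10.8% lower. The share of genes called thus has to be read against a background in which a large share of all probes passed. The median difference of the 9 genes was 0.75, against -0.04 over all tested probes. Group values did not overlap for 5 of the 9 genes, higher for Tbxas1, Ptger1, Ptger4 and Ptgir and lower for Ptger3, which turned with normexp background correction, and the background shares were 14.4% higher and 20.1% lower. At an unadjusted p under 0.05, 5 of 9 genes passed, beside 35.3% of all tested probes.

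In the rapamycin background (BA+rapamycin minus rapamycin), Ptger1 and Tbxas1 rose, and 6 tested genes did not pass the test. Ptger3, the EP3 receptor, passed with lower values but is not counted as a fall, since they were not well above background on the BA+rapamycin arrays and normexp background correction turned the direction. Here 41.7% of all tested probes were called, 18.9% higher and 22.9% lower. The 9 genes had a median difference of 0.37, against -0.08 over all tested probes. Group values did not overlap for 6 of the 9 genes (Ptgs2, Ptges, Tbxas1 and Ptger1 higher, Ptgis and Ptger3 lower, with Ptges and Ptger3 turned by normexp), and the background shares were 29.8% higher and 36.1% lower. At an unadjusted p under 0.05, 4 of 9 genes passed, beside 51.9% of all tested probes. Taken in either direction, these counts are near or below the background shares, so they are not read as a result about the set. The 2 challenge comparisons share no arrays.

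No prostanoid gene passed the test for rapamycin, either under challenge (BA+rapamycin minus BA+DMSO, 0 of 9 genes) or alone (rapamycin minus DMSO, 0 of 9). The background shares were 0.281% (0.0719% higher and 0.209% lower) and 0.0036%, so few calls would arise among 9 genes in any case. At an unadjusted p under 0.05, limma gave 3 genes under challenge (Ptgs2, Ptger1 and Ptger3) and 0 alone, beside 20.1% and 4.27% of all tested probes. Groups did not overlap for Ptger1 (higher) and Ptger3 (lower, though turned by normexp) under challenge, beside 6.9% higher and 7.57% lower of all tested probes, and for Ptger1 (higher) with rapamycin alone, beside 10.8%. For the interaction (the rapamycin difference under challenge less that without challenge), 0 of 9 genes and 0% of all tested probes were called, and 2 genes (Ptger1 and Ptger3) had an unadjusted p under 0.05, beside 6.12% of all tested probes.

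**Figure D1:**
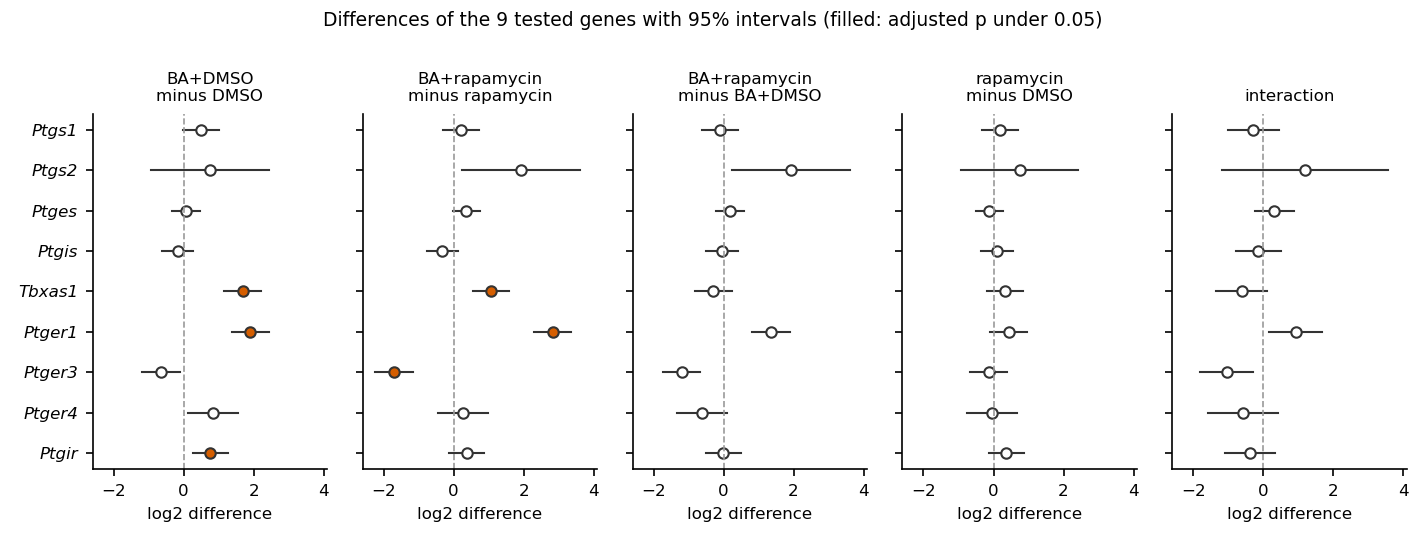
Log2 differences of the 9 tested genes (points) with 95% confidence intervals (lines) in 4 comparisons of 3 arrays against 3 and in the interaction, from the limma model over 12 arrays. Filled points passed an adjusted p under 0.05, which were Tbxas1, Ptger1 and Ptgir for BA+DMSO minus DMSO and Tbxas1, Ptger1 and Ptger3 for BA+rapamycin minus rapamycin, where Ptger3 was not well above background in BA+rapamycin and turned under another background correction (to 0.44).

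The study's rule for the arrays was a p under 0.01, taken here as unadjusted, with a fold over 4 or under 0.25. It took in 0 of 9 genes for the challenge, for rapamycin under challenge and for rapamycin alone. For the challenge under rapamycin it took in 1 of 9, Ptger1. The shares of all tested probes were 2.51%, 0.173%, 0.0216% and 5.14% in that order.

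Slide and brightness moved with the challenge. All DMSO arrays and rapamycin replicate 1 lay on 1 slide, and all challenged arrays with rapamycin replicates 2 and 3 lay on the other. The 75th percentile of processed signal, in intensity units, ranged from 221 to 280 in DMSO and from 257 to 337 in rapamycin. On challenged arrays it ranged from 78.1 to 246 with vehicle and from 74.6 to 109 with rapamycin. With slide as a fixed block, which leans on the 3 rapamycin arrays to separate slide from challenge, 0 of 9 genes passed for the challenge. The differences were then 1.89 for Ptger1 (adjusted p = 0.192), 1.80 for Tbxas1 (0.201) and 0.72 for Ptgir (0.583), close to those without the block. With slide as a random block, for which limma estimated a negative correlation within slides (-0.133), 5 of 9 genes passed. Array weights estimated by limma were 0.10 and 0.20 for BA+DMSO replicates 2 and 3 against 1.88 for replicate 1, so fits with array weights take BA+DMSO mostly from 1 array. Labels do not state how RNA was allotted to slides, and the part of slide and brightness in the results was not tested beyond these fits.

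Among the enzymes, Ptgs1 encodes cyclooxygenase-1, the form that many cells make without a stimulus. Its levels were 2.05, 2.19 and 2.39 in DMSO, 2.50, 2.61 and 2.09 in rapamycin, 2.81, 3.05 and 2.28 in BA+DMSO and 2.33, 2.71 and 2.79 in BA+rapamycin. All 4 groups overlapped with at least one other. The challenge difference was 0.51 (SE 0.24, 95% interval -0.01 to 1.02, adjusted p = 0.151), and it passed only when BA+DMSO replicate 3 was left out (0.72, adjusted p = 0.0249) or arrays were weighted (0.56, adjusted p = 0.0300).

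Ptgs2 encodes cyclooxygenase-2, the form induced by cytokines and growth factors, and its probe was printed in 10 spots per array. Levels were -0.02, 0.34 and -0.20 in DMSO and 0.89, 0.20 and 1.27 in rapamycin. They were 1.23, -1.39 and 2.54 in BA+DMSO and 2.94, 3.13 and 2.09 in BA+rapamycin. The BA+DMSO arrays thus held both the lowest of all 12 values and a value above every unchallenged array, while the 3 BA+rapamycin arrays lay above all 6 unchallenged arrays.

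No comparison of Ptgs2 passed the test in the main processing. The challenge difference was 0.75 (SE 0.76, adjusted p = 0.513), with an interval from -0.93 to 2.43. The challenge under rapamycin gave 1.94 (SE 0.76, adjusted p = 0.0616) and rapamycin under challenge gave 1.93 (SE 0.76, unadjusted p = 0.0283, adjusted p = 0.213), or 0.83 without BA+DMSO replicate 2 and 2.80 without BA+DMSO replicate 3. BA+DMSO replicate 2, the array with the lowest Ptgs2 level, was also the dimmest of its group (78.1 intensity units). Without it the challenge difference was 1.85 (adjusted p = 0.0154) and that under rapamycin passed too (1.94, adjusted p = 0.0032), whereas without BA+DMSO replicate 3 the challenge difference was -0.12 and that under rapamycin passed (adjusted p = 0.0193).

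With array brightness as a covariate, Ptgs2 differences were 2.44 for the challenge (adjusted p = 0.0291), 4.89 for the challenge under rapamycin (adjusted p = 0.0183) and 2.88 for rapamycin under challenge (adjusted p = 0.0480). The challenge under rapamycin also passed with normexp (1.45, adjusted p = 0.0343), without a filter on dim probes (adjusted p = 0.0498), with only the groups compared (adjusted p = 0.0047) and with array weights (1.82, adjusted p = 0.0018), as did the challenge with array weights (1.13, adjusted p = 0.0470). The value of this gene therefore changed more than 1.5 times with the processing and with which BA+DMSO array was left out. The cause of these changes was not tested.

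Ptges encodes the inducible microsomal prostaglandin E synthase, which acts downstream of cyclooxygenase-2. Its brighter probe gave 5.10, 5.16 and 5.22 in DMSO, 5.13, 5.03 and 4.98 in rapamycin, 5.20, 5.55 and 4.92 in BA+DMSO and 5.28, 5.56 and 5.40 in BA+rapamycin. The challenge difference was 0.06 (SE 0.18, 95% interval -0.33 to 0.46, adjusted p = 0.833), and under rapamycin it was 0.37 (SE 0.18, adjusted p = 0.116), where the groups did not overlap. The first interval leaves out a change of the size seen for Ptger1 or Tbxas1 in either direction. Under rapamycin the difference passed without BA+DMSO replicate 2 (0.37, adjusted p = 0.0293). It also passed with only the groups compared (adjusted p = 0.0468) and with array weights (0.33, adjusted p = 0.0168). It turned to -0.068 with normexp and to -0.23 with brightness as a covariate. The other Ptges probe was well above background on 7 of 12 arrays and was not tested.

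Ptgis encodes prostacyclin synthase. Its main probe gave 7.85, 7.81 and 7.86 in DMSO, 7.78, 8.04 and 8.004 in rapamycin, 7.18, 7.97 and 7.86 in BA+DMSO and 7.63, 7.67 and 7.58 in BA+rapamycin. The 3 BA+rapamycin values lay below every unchallenged value, and BA+DMSO spanned both. The challenge difference was -0.17 (SE 0.20, adjusted p = 0.582), or -0.56 with array weights (adjusted p = 0.0092), and that under rapamycin was -0.32 (SE 0.20, adjusted p = 0.223), which passed with quantile normalization between arrays (-0.91, adjusted p = 0.0079), in the deposited matrix (-0.87, adjusted p = 0.0084) and with normexp background correction (-0.75, adjusted p = 0.0086).

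A second, dim Ptgis probe, which the array files place on a different transcript, did not follow the main probe. It gave -2.68, -2.46 and -2.20 in DMSO, -3.51, -2.97 and -2.94 in rapamycin, -1.82, -1.37 and -1.64 in BA+DMSO and -2.73, -2.80 and -2.65 in BA+rapamycin. BA+DMSO stood above the other 3 groups, with a challenge difference of 0.83 (SE 0.21, adjusted p = 0.0180) and a difference of -1.11 for rapamycin under challenge (SE 0.21, adjusted p = 0.0584). As the 2 probes disagree, no direction is given for Ptgis as a gene.

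Tbxas1 encodes thromboxane A synthase, an enzyme known from platelets and macrophages. Its probe at chr6:39034356-39034415 (mm9, + strand) gave -0.74, -1.16 and -1.21 in DMSO, -0.62, -0.57 and -0.90 in rapamycin, 1.12, 0.30 and 0.52 in BA+DMSO and 0.42, 0.53 and 0.13 in BA+rapamycin. All 6 challenged arrays lay above all 6 unchallenged arrays. Tbxas1 rose by 1.69 with the challenge (SE 0.24, adjusted p = 0.0012, a 3.22-fold level) and by 1.06 under rapamycin (SE 0.24, adjusted p = 0.0064, a 2.09-fold level). The rise with the challenge kept its direction without each array in turn, from 1.45 to 1.86. With slide as a fixed block it was 1.80 and did not pass (adjusted p = 0.201). The rise under rapamycin did not pass on the slide that held both of its groups (1.098, adjusted p = 0.0535) or with brightness as a covariate (1.11, adjusted p = 0.140). Rapamycin under challenge gave -0.29 (SE 0.24, 95% interval -0.81 to 0.23, adjusted p = 0.448), so it did not pass. It was -0.051 without BA+DMSO replicate 1, and with array weights, which lean on that array, it was -0.74 and passed (adjusted p = 0.0297). Over the processing alternatives, the lowest rise of Tbxas1 was 1.21 with the challenge and 0.77 under rapamycin. A second Tbxas1 probe was not well above background on any array.

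Macrophage markers rose in the same comparisons as Tbxas1. All 8 of 8 macrophage markers (Emr1, Cd68, Csf1r, Cd14, Lyz2, Mrc1, Aif1 and Fcgr1) rose with the challenge, with a median difference of 2.27, and 6 of 8 rose under rapamycin, with a median of 1.45, where 9.65% and 18.9% of all tested probes rose. With slide as a fixed block, 0 of 8 passed for the challenge (median 1.83) and 5 of 8 under rapamycin, and without BA+rapamycin replicate 2 or with brightness as a covariate the latter count was 4. All 8 were well above background on every array. Their summed level, in units of the 75th percentile, was 22.4 to 39.4 in DMSO, 35.7 to 44.3 in rapamycin, 66.1 to 156 in BA+DMSO and between 94.4 and 99.1 in BA+rapamycin.

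Of 8 platelet markers, 6 were tested, of which Pf4 rose with the challenge, though not with slide as a fixed block (0 of 6), and Treml1 rose under rapamycin, beside the same background shares of 9.65% and 18.9%. Itga2b and Gp9 also passed under rapamycin, but both were well above background on only 1 of 3 BA+rapamycin arrays, and on 1 and 0 of 3 rapamycin arrays. Gp5 and Gp6 were not well above background on any array. With brightness as a covariate, 0 of 6 platelet markers passed under rapamycin. The platelet sum, carried by Pf4, was 6.55 to 16.5 in DMSO and 9.84 to 11.99 in rapamycin. It was 19.3 to 41.5 in BA+DMSO and between 11.3 and 14.8 in BA+rapamycin. The median difference of the 6 tested markers, dim ones included, was 1.45 with the challenge and 1.97 under rapamycin. With brightness as a covariate these medians were 0.22 and 0.38. The part of these cells in the rise of Tbxas1 was not tested. In whole aorta, more cells of a type and more RNA per cell cannot be told apart.

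**Figure D2:**
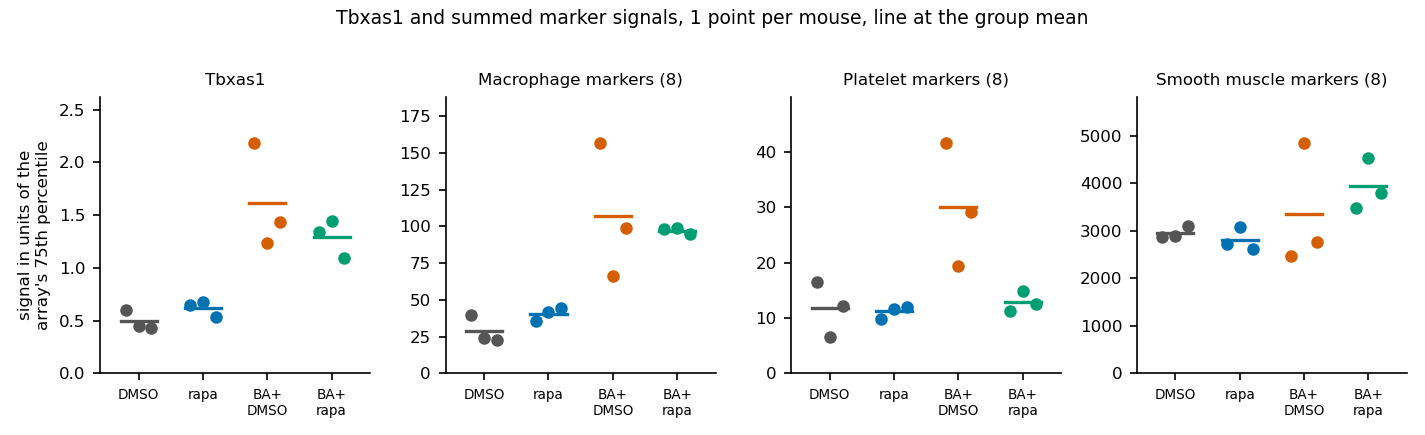
Linear signals in units of the array's 75th percentile for Tbxas1 and for the sums of 8 macrophage, 8 platelet and 8 smooth muscle markers, with 1 point per mouse and a line at the group mean. Tbxas1 and the macrophage sum were higher on all 6 challenged arrays than on all 6 unchallenged arrays. Sums are carried by their brightest probes. The platelet sum, carried by Pf4, was highest in BA+DMSO (19.3 to 41.5). Over the 6 tested platelet markers, the median log2 difference was 1.45 for BA+DMSO minus DMSO and 1.97 for BA+rapamycin minus rapamycin. The smooth muscle sum ranged from 2465 to 4842 in BA+DMSO and from 3491 to 4530 in BA+rapamycin, above all unchallenged arrays in the latter (2610 to 3093). Only 2 of 8 smooth muscle markers were higher for BA+rapamycin minus rapamycin, with a median of -0.35.

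Among the receptors, Ptger1, or EP1, had the largest rise with the challenge. Its probe at chr8:86193943-86194002 (mm9, + strand) gave -1.74, -2.56 and -1.86 in DMSO, -1.63, -1.74 and -1.49 in rapamycin, 0.13, -0.25 and -0.32 in BA+DMSO and 1.52, 1.09 and 1.01 in BA+rapamycin. The 4 groups stood in the order DMSO, rapamycin, BA+DMSO and BA+rapamycin without overlap, although the highest DMSO and lowest rapamycin values both round to -1.74, and neither rapamycin step passed the test. Group means were -2.05 ± 0.45, -1.62 ± 0.12, -0.15 ± 0.24 and 1.21 ± 0.27 (SD) in that order.

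Ptger1 rose by 1.91 with the challenge (SE 0.24, adjusted p = 0.00079), a 3.75-fold level, and by 2.83 under rapamycin (SE 0.24, adjusted p = 8.2e-05), a 7.10-fold level. With slide as a fixed block the challenge difference was 1.89 and did not pass (adjusted p = 0.192). Over the processing alternatives, the lowest rise of Ptger1 was 1.25 with the challenge and 1.98 under rapamycin. For rapamycin under challenge the difference was 1.36 (SE 0.24, adjusted p = 0.0530), just short of the threshold, and for rapamycin alone 0.43 (SE 0.24, 95% interval -0.10 to 0.97, adjusted p = 1.00). The interaction was 0.92 (SE 0.34, unadjusted p = 0.0208, adjusted p = 0.737). Rapamycin under challenge did not pass in 16 of 24 other fits and passed in 8. Its difference ranged from 0.95 to 1.49 over these fits, with an adjusted p of up to 0.612. It passed without DMSO replicate 2 (adjusted p = 0.0453), BA+DMSO replicate 1 (1.49, adjusted p = 0.0409) or BA+DMSO replicate 2 (1.31, adjusted p = 0.0066). It also passed with quantile normalization (1.45, adjusted p = 0.0213) and in the deposited matrix (1.49, adjusted p = 0.0208). The other passing fits were those with array weights (1.11, adjusted p = 0.0234), with brightness as a covariate (1.35, adjusted p = 0.0480) and with the mean of all probes (adjusted p = 0.0431).

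Ptger2 encodes EP2, a receptor that raises cyclic AMP. Its probe was not well above background on any of the 12 arrays, so no level or difference is given.

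Ptger3 encodes EP3, which lowers cyclic AMP and is known for constriction of arteries. The brighter probe, at chr3:157268044-157268103 (mm9, + strand), gave -2.45, -3.02 and -2.73 in DMSO, -3.00, -2.55 and -3.05 in rapamycin, -3.70, -3.13 and -3.31 in BA+DMSO and -4.74, -4.21 and -4.77 in BA+rapamycin. The signal was well above background on all 6 unchallenged arrays, on 1 of 3 BA+DMSO arrays and on 0 of 3 BA+rapamycin arrays. The probe was tested only because it was bright enough in the unchallenged groups. The limma adjusted p of 0.00083 under rapamycin is therefore no support for a fall, with measured means of -2.87 in rapamycin and -4.57 in BA+rapamycin, the second from signals not well above background, and no size or fold is given.

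The direction for Ptger3 depended on how background was handled, since normexp background correction turned the difference under rapamycin to 0.44 (adjusted p = 0.0694) and the challenge difference from -0.65 to 0.30. With the main processing, the challenge difference of -0.65 (SE 0.24, adjusted p = 0.0807) did not pass, with 2 of 3 BA+DMSO arrays not well above background. It passed in 6 other fits, among them quantile normalization (-0.88, adjusted p = 0.0213) and that without BA+DMSO replicate 2 (-0.77, adjusted p = 0.0473). For rapamycin under challenge both groups lay at or near background, so that the difference, -1.19 in the main processing (adjusted p = 0.0668), -1.78 with quantile normalization (adjusted p = 0.0085) and 0.039 with normexp, is not read as a change. A second Ptger3 probe was well above background on 3 of 3 DMSO arrays and 0 of 3 BA+DMSO arrays and did not pass for the challenge (adjusted p = 0.0914), where its groups overlapped, or under rapamycin (adjusted p = 0.762).

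Ptger4 encodes EP4, which raises cyclic AMP and is known in macrophages as well as in the vessel wall. Levels were -2.26, -1.77 and -2.14 in DMSO, -1.95, -2.04 and -2.29 in rapamycin, -0.63, -1.39 and -1.62 in BA+DMSO and -1.33, -2.51 and -1.66 in BA+rapamycin. BA+DMSO lay above both unchallenged groups, and BA+rapamycin overlapped with all other groups. The challenge difference was 0.84 (SE 0.32, 95% interval 0.13 to 1.56, adjusted p = 0.0892). It was 0.55 without BA+DMSO replicate 1. It passed without BA+DMSO replicate 3 (1.05, adjusted p = 0.0369), without BA+rapamycin replicate 2 (0.84, adjusted p = 0.0499), with normexp background correction (0.63, adjusted p = 0.0260), with array weights (1.24, adjusted p = 0.0030) and with slide as a random block (0.80, adjusted p = 0.0265). The difference under rapamycin was 0.26 (SE 0.32, adjusted p = 0.537), which quantile normalization turned to -0.09 and normexp raised past the threshold (0.60, adjusted p = 0.0134), and which ranged from 0.0063 to 0.60 without each array in turn. Rapamycin under challenge gave -0.62 (adjusted p = 0.288), from -0.87 to -0.28 without each array in turn, and it passed with array weights (-0.96, adjusted p = 0.0352).

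Ptgir encodes the prostacyclin receptor, which raises cyclic AMP in smooth muscle and platelets. Its probe at chr7:17496120-17496179 (mm9, + strand) gave -0.61, -0.69 and -1.14 in DMSO, -0.47, -0.26 and -0.61 in rapamycin, 0.33, -0.15 and -0.35 in BA+DMSO and 0.13, -0.34 and -0.0012 in BA+rapamycin. BA+DMSO lay above DMSO without overlap, and both challenged groups covered nearly the same range. Ptgir rose by 0.76 with the challenge (SE 0.23, adjusted p = 0.0384), a 1.69-fold level, and the difference under rapamycin was 0.38 (SE 0.23, adjusted p = 0.195).

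The call of Ptgir was the least firm of the 3. It was lost without any of DMSO replicates 1, 2 and 3, rapamycin replicates 1, 2 and 3, BA+rapamycin replicate 3 or BA+DMSO replicate 1, with adjusted p from 0.0528 to 0.139 and differences from 0.56 to 0.86. It was also lost with quantile normalization (0.70, adjusted p = 0.0502), without a filter on dim probes (adjusted p = 0.0979), with only the 2 compared groups in the fit (adjusted p = 0.150), with brightness as a covariate (0.76, adjusted p = 0.0956) and with slide as a fixed block. In all, 13 of 23 fits lost it. The direction was the same in all of these fits.

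**Figure D3:**
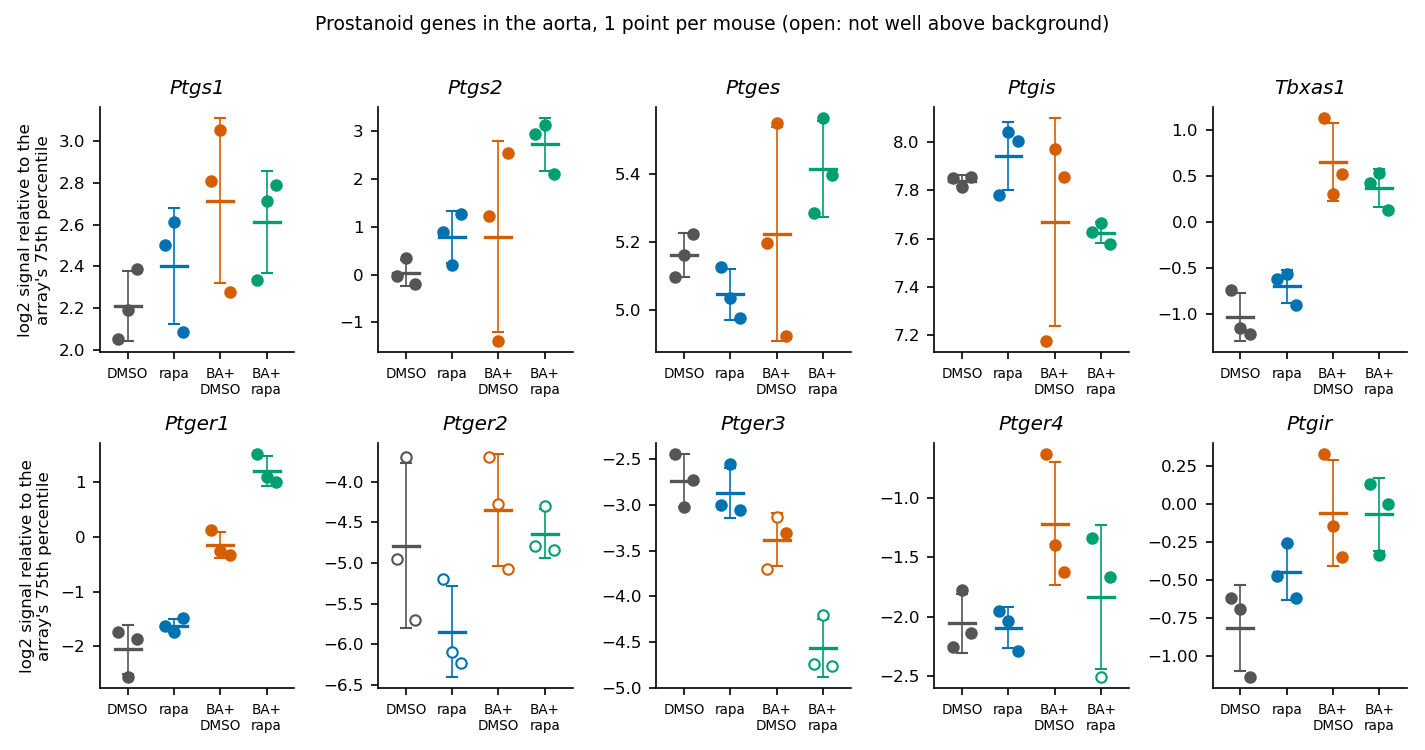
Log2 signal of each of the 10 genes relative to the array's 75th percentile (vertical axes differ between panels), by group, with 1 point per mouse, a line at the mean and a bar of 1 SD. Open points were not well above background, as for all 12 Ptger2 values. Ptger1 group means ran from -2.05 in DMSO to 1.21 in BA+rapamycin, Tbxas1 separated the 6 challenged from the 6 unchallenged arrays, and the 3 BA+DMSO values of Ptgs2 ran from -1.39 to 2.54.

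The neighbouring steps of the pathway were described from 3 lists. The enzymes that release arachidonic acid, related phospholipases and the remaining prostanoid synthases had 12 of 18 listed genes tested. With the challenge, 2 rose (Pla2g2e and Pla2g7), 1 fell (Pla2g5) and Pla2g2d passed from a dim signal, with a list median of 0.07 against -0.04 over all tested probes, of which 9.65% were called higher and 10.8% lower. Pla2g2e, a secreted phospholipase, rose by 2.20 (SE 0.35, adjusted p = 0.0022), or by 1.04 with normexp, and was well above background on 2 of 3 DMSO arrays. Pla2g7, which hydrolyses platelet-activating factor, rose by 1.44 (SE 0.31, adjusted p = 0.0104). Pla2g5, another secreted phospholipase, changed by -1.68 (SE 0.43, adjusted p = 0.0213), with levels of 0.55, 0.70 and 1.44 in DMSO against -0.74, -0.25 and -1.36 in BA+DMSO. Pla2g2d passed with lower values (adjusted p = 0.0275), but it was not well above background on any BA+DMSO array, so it is not counted as a fall, and normexp background correction turned it to 0.16 (adjusted p = 0.563). All 4 of these calls were lost with slide as a fixed block, that of Pla2g5 also without DMSO replicate 2, DMSO replicate 3 or BA+DMSO replicate 1, that of Pla2g7 also without DMSO replicate 2, and that of Pla2g2d also without DMSO replicate 1 or 2 or BA+DMSO replicate 1 or 2.

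Under rapamycin, 3 genes of this list rose (Pla2g12a, Pla2g2e and Pla2g4b) and 2 fell (Pla2g5 and Ptges3), with a list median of -0.17, while 41.7% of all tested probes were called, which is near the list's share. Pla2g5 was again lower (-2.28, SE 0.43, adjusted p = 0.0032), at -1.38 with normexp and -3.53 with brightness as a covariate. Pla2g12a was 0.84 higher (adjusted p = 0.0148), Pla2g2e 1.27 higher (adjusted p = 0.0154), and Ptges3, the cytosolic prostaglandin E synthase and a cochaperone, changed by -0.61 (adjusted p = 0.0152). Of these, only Pla2g5 passed with brightness as a covariate, where Pla2g4b turned to -0.16. Leaving out rapamycin replicate 3 ended the calls of Pla2g12a, Pla2g4b and Ptges3, leaving out rapamycin replicate 1 that of Pla2g2e (also lost with quantile normalization, at 0.94, and in the deposited matrix), rapamycin replicate 2 or BA+rapamycin replicate 2 that of Pla2g4b, and BA+rapamycin replicate 3 that of Ptges3.

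The other prostanoid receptors and the clearance genes had 9 of 11 listed genes tested. With the challenge 0 rose and 1 fell (9.65% and 10.8% of all tested probes), which was Tbxa2r, the thromboxane A2 receptor. The counts were 0 and 0 with quantile normalization, 2 and 1 with normexp or slide as a random block, 2 and 0 with brightness as a covariate and 4 and 1 with array weights. Tbxa2r levels were 3.42, 3.50 and 3.47 in DMSO, 3.03, 3.40 and 3.20 in rapamycin, 1.97, 2.99 and 2.71 in BA+DMSO and 1.81, 1.17 and 1.84 in BA+rapamycin. All 6 challenged arrays lay below all 6 unchallenged arrays, the reverse of its ligand's synthase, Tbxas1. Among muscle markers, with the challenge 2 of 8 smooth muscle genes fell and 0 rose (median -0.58), as did 3 of 7 tested striated muscle genes (median -1.21), and under rapamycin 2 of 8 and 3 of 7 fell and 1 and 0 rose (medians -0.35 and -0.84), where 22.9% of all tested probes fell and 18.9% rose. With slide as a fixed block, 0 of these muscle genes fell with the challenge and 1 and 0 under rapamycin, whereas with array weights 6 of 8 and 7 of 7 fell with the challenge. Their part in the Tbxa2r difference was not tested. The differences were -0.90 for the challenge (SE 0.27, adjusted p = 0.0367) and -1.60 under rapamycin (SE 0.27, adjusted p = 0.0018). The first call was lost in 11 of 19 other fits, among them quantile normalization and those without each of the DMSO and rapamycin arrays or without BA+DMSO replicate 1, while every fit gave a lower level, from -1.39 to -0.61. Under rapamycin 4 of 9 genes were called, near the 41.7% of all tested probes. The gene that rose was Ptgfrn, a partner protein of the prostaglandin F receptor (1.26, adjusted p = 0.0211), which was lost without rapamycin replicate 3 or BA+rapamycin replicate 3 and turned to -0.20 with brightness as a covariate. Another 2 fell beside Tbxa2r, namely Ptgr2, a prostaglandin reductase (-0.78, adjusted p = 0.0161), and Ptgfr, the prostaglandin F2 alpha receptor (-1.21, adjusted p = 0.0215). The call of Ptgr2 was lost without rapamycin replicate 3 or BA+rapamycin replicate 2, and that of Ptgfr without rapamycin replicate 2 or 3 or BA+rapamycin replicate 1 and with normexp (-0.15, adjusted p = 0.554). With brightness as a covariate none of the 9 genes passed under rapamycin, with Ptgr2 at -0.0093 (adjusted p = 0.985), Tbxa2r at -1.55 (adjusted p = 0.0859) and Ptgfr at -1.47 (adjusted p = 0.209). The list medians were 0.42 for the challenge and -0.50 under rapamycin.

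The leukotriene and lipoxygenase branch, which competes for the same arachidonic acid, had 8 of 12 listed genes tested, and 5 of 8 rose in both challenge comparisons, with 0 lower, where 9.65% and 18.9% of all tested probes were called higher. The list medians were 1.70 and 1.24. With the challenge, Ltb4r1, the leukotriene B4 receptor of leukocytes, rose by 2.26 (SE 0.26, adjusted p = 0.00057). Ltc4s, the leukotriene C4 synthase, rose by 1.66 (SE 0.22, adjusted p = 0.00091). Alox5ap, the partner protein of 5-lipoxygenase, rose by 2.24 (SE 0.35, adjusted p = 0.0021). Cysltr1, a cysteinyl leukotriene receptor, rose by 2.31 (SE 0.37, adjusted p = 0.0023). The fifth was Alox5, 5-lipoxygenase itself. With slide as a fixed block none of the 5 passed for the challenge, with Ltb4r1 then at 2.26 (adjusted p = 0.164) and Ltc4s at 1.86 (adjusted p = 0.160), whereas 4 of 8 passed under rapamycin, where the call of Alox5 was also lost without any 1 of the 6 arrays compared. With brightness as a covariate, 2 of 8 passed under rapamycin, and Ltc4s was then 0.74 (adjusted p = 0.157), Alox5ap 2.22 (adjusted p = 0.0565) and Alox5 1.86 (adjusted p = 0.0839). Several of these genes are known from macrophages, whose markers rose in the same comparisons, and the part of these cells was not tested. Among other markers, 1 of 5 tested neutrophil genes (median 1.64) and 2 of 6 T and B cell genes (median 0.57) rose with the challenge. The counts were 3 of 8 for endothelial, 2 of 8 for fibroblast, 1 of 7 for adipocyte and 0 of 4 for mast cell genes. Under rapamycin 1, 2, 1, 3, 0 and 0 rose in that order, while 2 endothelial genes and 1 adipocyte gene fell. With slide as a fixed block 0 rose with the challenge, and the part of these cell types was not tested.

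Under rapamycin Ltb4r1 rose by 3.59 (SE 0.26, adjusted p = 6.3e-05), Cysltr1 by 2.64 (adjusted p = 0.00077), Ltc4s by 1.36 (adjusted p = 0.0015) and Alox5ap by 1.62 (adjusted p = 0.0054). Ltb4r1 levels were -2.84, -3.23 and -2.71 in DMSO and -3.15, -3.10 and -3.19 in rapamycin. They were -0.08, -0.98 and -0.93 in BA+DMSO and 0.76, 0.10 and 0.48 in BA+rapamycin. The BA+rapamycin arrays were thus above the BA+DMSO arrays, as they were for Ptger1 and for 6.9% of all tested probes. With normexp the rises still passed but were smaller, at 1.35 and 2.15 for Ltb4r1 and 1.30 and 1.69 for Cysltr1, for the challenge and under rapamycin. For rapamycin under challenge and for rapamycin alone, 0 genes of the 3 lists passed the limma test. At an unadjusted p under 0.05, limma gave 9 of the 29 tested genes under challenge, beside 20.1% of all tested probes. With rapamycin alone it gave 6 of 29, beside 4.27%.

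**Figure D4:**
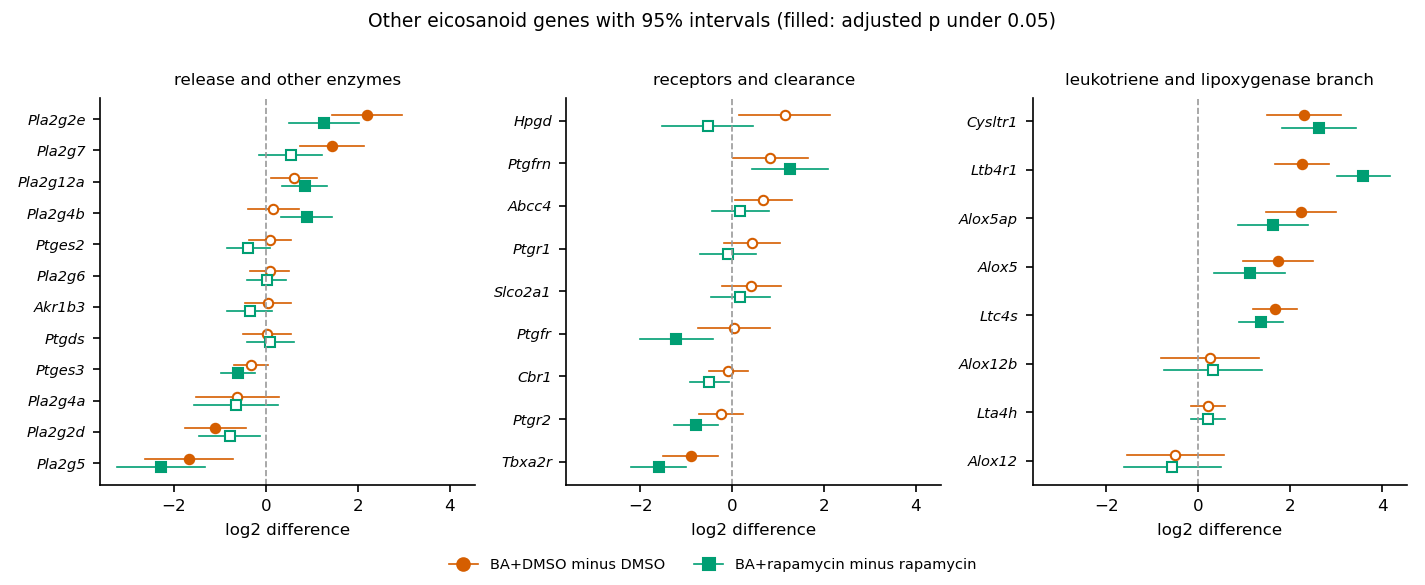
Log2 differences with 95% confidence intervals of the tested genes of 3 eicosanoid lists, for BA+DMSO minus DMSO (circles) and BA+rapamycin minus rapamycin (squares), each from 3 arrays against 3. Filled symbols passed an adjusted p under 0.05. In the leukotriene and lipoxygenase branch 5 of 8 genes rose in both comparisons, and Tbxa2r and Pla2g5 fell in both.

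The genes with the most similar profile over the 12 arrays were sought for the 2 genes with the lowest adjusted p for the challenge. Likeness was the root mean square (RMS) difference of centred log2 levels, over 20025 other gene names. For Ptger1, whose own RMS deviation was 1.31, the nearest were Gda (0.29), an intergenic transcript that the array names by its position on chromosome 5 (0.32) and Csf2rb2 (0.32). For Tbxas1, whose own RMS deviation was 0.74, the nearest were Prkcb (0.12), Tlr13 (0.15) and Ccnd1 (0.18).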

How the data were processed

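Total RNA of 12 aortas was labelled with Cy3 for Agilent 1-colour arrays, 12 in all, on 2 slides. The file headers name Feature Extraction 10.7.1.1 as the scanner software (the submitters' processing notes give 9.5.1.1) and mm9 as the build of the probe positions. Per the file headers, the deposited intensity had background and spatial trend removed, and each spot carries flags of 0 or 1. The deposited matrix holds quantile-normalized intensity, as its values show (r of 0.9999 or more with such a normalization), since the authors' step is not stated.

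Log2 processed signal was averaged over spots without an outlier flag, and each array's 75th percentile was subtracted. Tests were run on probes with a share of at least 0.5 of spots flagged as well above background on every array of 1 group or more. One limma 3.58.1 model (R 4.3.3) with a mean per group held all 12 arrays, with two-sided tests, Benjamini-Hochberg adjustment over 27801 probes per contrast, and calls at an adjusted p under 0.05. The model was tested on simulated data. The number of arrays limits the precision.

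Genes stand by their probe with the highest mean. For each pathway list and comparison, differences of the main fit are given for up to 4 called genes with the lowest adjusted p. The genes and lists were chosen with earlier results of these data known. Alternatives covered background, scaling, filter, slide, weights, brightness, probe choice and left-out arrays. A further item is not reported here.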

Additional observations from a re-analysis of the deposited data

Results flagged for a closer look

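For 2 prostanoid genes, all arrays of the challenged pair of groups moved one way with rapamycin and all arrays of the unchallenged pair the other way, when each rapamycin-treated array was set against the mean of its vehicle group. For Tbxas1, rapamycin under challenge minus rapamycin alone was -0.63 (limma unadjusted p = 0.0871, adjusted p = 0.737). For Ptges it was 0.31 (unadjusted p = 0.251, adjusted p = 0.737). Neither difference passed the test here, and that of Tbxas1 passed with array weights (-1.16, adjusted p = 0.0401). The spread of the vehicle arrays does not enter this rule. Its share over all tested probes was not computed, so the 2 genes are not read as a result.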

How the results depend on the processing

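Counts of called genes were recomputed under 27 alternatives and moved by over 1.5 times under some. For the challenge, 3 genes became 8 with array weights and 5 with slide as a random block. They became 0 with slide as a fixed block or the study's rule (p under 0.01, taken as unadjusted, and a fold over 4 or under 0.25). For rapamycin under challenge, 0 became 2 with quantile normalization, 2 in the deposited matrix, 4 with array weights, 3 with brightness as a covariate and 1 with the mean of all probes of a gene. For the challenge under rapamycin, 3 (Ptger3 included) became 5 with normexp, with only the groups compared and with array weights, and 1 with the study's rule. The interaction gave 1 with array weights (Tbxas1, -1.16), and rapamycin alone gave 0 in all 26 fits that could be made. Without each array in turn, counts were 2 to 5 for the challenge, 0 to 2 for rapamycin under challenge, 3 to 5 for the challenge under rapamycin and 0 to 0 for the interaction. The counts of 5 for the challenge came without BA+DMSO replicate 2 or 3.

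Directions turned for values that had not passed, except for Ptger3 under normexp. With quantile normalization and in the deposited matrix, Ptgs1 became 0.034 and 0.036 for rapamycin under challenge, and Ptger4 became -0.086 and -0.089 for the challenge under rapamycin. With normexp, which raised the median of all tested probes by 0.14 for the challenge and 0.22 under rapamycin, Ptges became -0.21 and Ptger3 0.30 for the challenge. Ptger3 became 0.039 and Ptgir 0.0040 for rapamycin under challenge, and Ptgs1 became -0.11, Ptges -0.068 and Ptger3 0.44 for the challenge under rapamycin, with Ptger3 at 0.14 for the interaction. With array weights, Ptgis became 0.33 for rapamycin under challenge and 0.25 for the interaction. With slide as a fixed block and on slide 1 only, Ptgis became -0.059 and Ptger4 0.11 for rapamycin alone, and with the block Ptgis became 0.016 for the interaction. With brightness as a covariate, Ptges became -0.28 for the challenge, -0.00022 for rapamycin under challenge and -0.23 for the challenge under rapamycin, where Ptgs1 became -0.59. On arrays of 1 title date, Ptger3 became 0.074 for rapamycin alone. With the mean of all probes, Ptgis became 0.33 for the challenge, -0.30 for rapamycin alone and 0.048 for the challenge under rapamycin, and Ptger3 became 0.089 for the interaction.

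Without each array in turn, the challenge ranged from -0.12 to 1.85 for Ptgs2, -0.10 to 0.21 for Ptges and -0.32 to 0.074 for Ptgis. Rapamycin under challenge ranged from -0.32 to 0.068 for Ptgs1, -0.29 to 0.11 for Ptgis and -0.16 to 0.18 for Ptgir, rapamycin alone from -0.29 to 0.0073 for Ptger3 and -0.14 to 0.11 for Ptger4, and the interaction from -0.39 to 0.0066 for Ptgis.

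Counting all gene values, those named above included, direction and side of the threshold held in 439 of 512 comparisons with a processing alternative. They held in 506 of 540 with an array left out, and the causes of the changes were not tested. Most of these comparisons, 912, were of values that the main fit had not called, of which 823 held. Of the 140 for called values, 122 held, 17 lost the call and 1 turned. For the neighbouring pathway genes, 24 called differences were fitted again under 19 settings chosen after the data were seen, of which 389 of 456 stayed called in the same direction, 64 no longer passed and 3 turned. These were Pla2g2d for the challenge with normexp (0.16), and Ptgfrn (-0.20) and Pla2g4b (-0.16) for the challenge under rapamycin with brightness as a covariate. Slide as a fixed block removed all 10 challenge calls of these genes and 2 of 14 under rapamycin, where brightness as a covariate left 3 of 14. The challenge calls of Ptger1 and Tbxas1 were lost only with slide as a fixed block and under the study's rule. Genes near background, such as Ptger3, are limited by signal over background, and 3 arrays per group limit all results. No paired analysis was possible because the replicate numbers only name arrays in the order of deposition. Sample titles also carry dates, some shared by arrays of different groups, but the labels do not say what the dates mark. Only 1 date is shared by DMSO and rapamycin arrays, so for rapamycin alone a date block rests on the arrays of that date, whose fit gave 0 called genes.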
